A study of Arabidopsis thaliana with 9 samples.

Results

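In seedlings of 2 Arabidopsis thaliana mutants that share much of their phenotype, 70 of 22746 probe sets moved apart, with a lower mean signal in cyp78a5,7 and a higher mean signal in amp1-13 than in wild type. They were chosen from the values described here. On the scale of log2(signal + 16), the mean of a probe set had to lie at least 0.5 below wild type in cyp78a5,7 and at least 0.5 above wild type in amp1-13, and every cyp78a5,7 array had to lie below every amp1-13 array. The last condition was met by 17.6% of all probe sets and all conditions together by 0.321%. The rule thus used all comparisons between the genotypes, so the differences of the members are given as a description and without a test. Another 3 probe sets that met the rule, for XTH6, ERF104 and CP12-2, were left out beforehand. The whole seedlings of both mutants and of the Col-0 wild type were 10 days old. They had been stratified for 2 days at 4 °C and grown in plates at 26 °C, with 16 h of light and 8 h of dark, in liquid MS medium that held 1% sucrose and 1% DMSO. The cyp78a5,7 double mutant carries a T-DNA insertion in CYP78A5 and another in CYP78A7, and amp1-13 is an insertion allele of AMP1, all in the Col-0 background. Each genotype had 3 biological replicates, each hybridized to an Affymetrix ATH1 array. The amp1-13 arrays had also served in an earlier study of the small molecule hyperphyllin.

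AMP1 encodes a putative carboxypeptidase, and CYP78A5 (KLUH) and CYP78A7 encode related cytochrome P450 enzymes. Both activities limit the stem cell pool of the shoot meristem and the rate of leaf initiation, and the arrays were made to ask how far the mutants change gene expression alike. At the thresholds of the rule, 1252 probe sets were lower in both mutants and 1190 were higher in both. The mirrored rule, higher in cyp78a5,7 and lower in amp1-13, was met by 16 probe sets.

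The platform annotation gave a single gene for 33 members (47.1%, against 59.4% of all probe sets), and 5 more members were named through the gene table of the study. Of the others, 31 had no name in the sources used here and 1 matched several genes, and these are given by their probe set. No probe set could be named for AMP1, CYP78A5 or CYP78A7 in the sources used here, so the targeted genes were not checked in these values. By RT-PCR, the study detected no CYP78A5 fragment in cyp78a5 and no CYP78A7 fragment in cyp78a7. It also reported strong up-regulation of CYP78A5 in amp1 and no significant up-regulation of AMP1 in cyp78a5,7. The median signal of an array was 34.4 to 37.1 in cyp78a5,7, 37.7 to 38.4 in amp1-13 and 31.1 to 38.9 in wild type, and between 34.5% and 38.3% of the probe sets of an array lay under the offset of 16. The brightest 1% of probe sets began at 1997 and 2063 on wild type replicates 3 and 1, against 1635 to 1779 on the other arrays. In whole seedlings, fewer cells of a type and less RNA per cell cannot be told apart. Of the root markers, 3 of 9 had a named probe set, and their summed signal was 3667 to 4632 in cyp78a5,7, 4428 to 4995 in amp1-13 and 4741 to 5311 in wild type. For 2 of 5 leaf mesophyll markers the sum was 3264 to 4073 in cyp78a5,7, 4877 to 6085 in amp1-13 and 2185 to 3101 in wild type, and for 2 of 4 guard cell markers it was 516 to 886, 989 to 1163 and 817 to 1249 in the same order. Of the meristem markers only CLV3 was named, at 0.441 to 5.17 in cyp78a5,7, 1.39 to 10.1 in amp1-13 and 0.561 to 0.705 in wild type, which is far below the offset. The genes within a sum did not always move alike. PYK10 made up most of the root sum, with means of 4044, 4523 and 4913 in the same order. EXPA7 and EXPA18 differed from wild type by log2 0.027 and 0.045 in cyp78a5,7. For mesophyll, CA1, named through the gene table of the study, differed by 1.63 in cyp78a5,7 and RCA by 0.11. For guard cells, GC1 differed by 0.085 in amp1-13 and FAMA by -0.60. The part of these cell types in the members' values was not tested.

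The rule cut both mutants at the same threshold of 0.5, so nothing is read from the similar sizes of the differences. In cyp78a5,7 the median log2 difference was -0.65 (range -1.49 to -0.50), beside a median of -0.02 for all probe sets. In amp1-13 it was 0.67 (range 0.50 to 1.51), beside 0.02 for all probe sets. The mutants themselves were 1.46 apart in the median, amp1-13 minus cyp78a5,7, with a range of 1.00 to 2.69. A change of at least 1 was reached by 9 members in cyp78a5,7 and by 14 in amp1-13, and by 4 in both, AT5G22920, BGLU28, AT4G33720 and AT2G29290. In 29 members the change stayed under 0.75 in both mutants. The change was larger in amp1-13 for 36 members and larger in cyp78a5,7 for 34. Most members were brighter than the typical probe set, with wild type means of 11.0 to 1740.0 and a median of 134, against 35.4 for all probe sets, and 59 of the 70 lay above the median of all. Only 8 had a cyp78a5,7 mean under 16 and 1 a wild type mean under 16. The offset of 16 shrinks the differences of dim probe sets, so the rule itself favoured brighter ones.

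**Figure D1:**
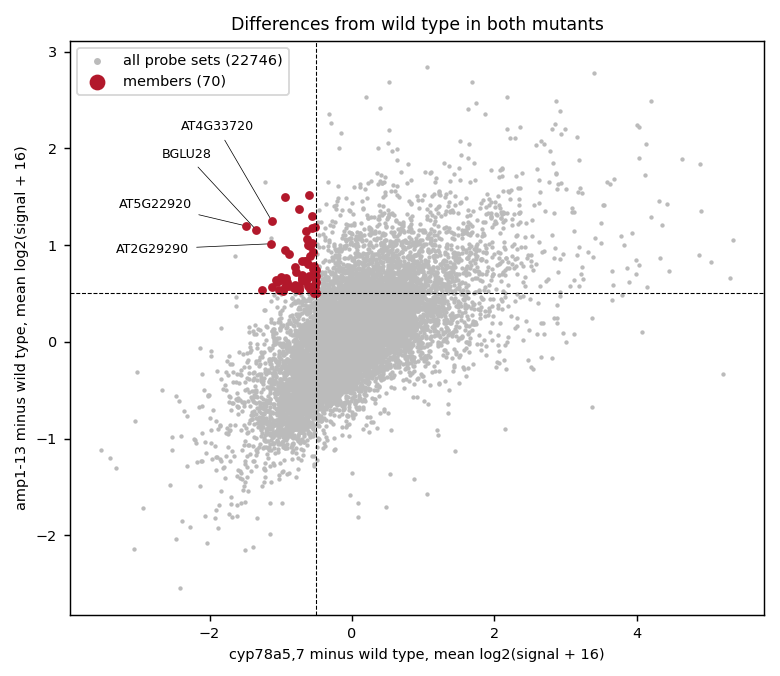
Mean log2(signal + 16) of cyp78a5,7 minus wild type (horizontal) against amp1-13 minus wild type (vertical) for 22746 probe sets in grey and the 70 members in red, with dashed lines at the 0.5 thresholds. The members fill the upper left corner beside a cloud that runs from lower in both mutants to higher in both. Of the members, 29 stay under 0.75 in both mutants.

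The edge of the set was narrow. Just inside it stood 247946_at, at -0.501 in cyp78a5,7 and 0.501 in amp1-13, 248962_at, at -0.502 in cyp78a5,7, and AT2G29340, at 0.504 in amp1-13. Just outside stood 267265_at, at -0.499 in cyp78a5,7 and 1.01 in amp1-13, 251068_at, at -0.495 in cyp78a5,7, AT1G17970, at 0.497 in amp1-13, and 249694_at, at -0.994 in cyp78a5,7 and 0.496 in amp1-13. A single probe set, 259058_at, met both conditions on the means and was left out because the arrays of the mutants overlapped.

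**Figure D2:**
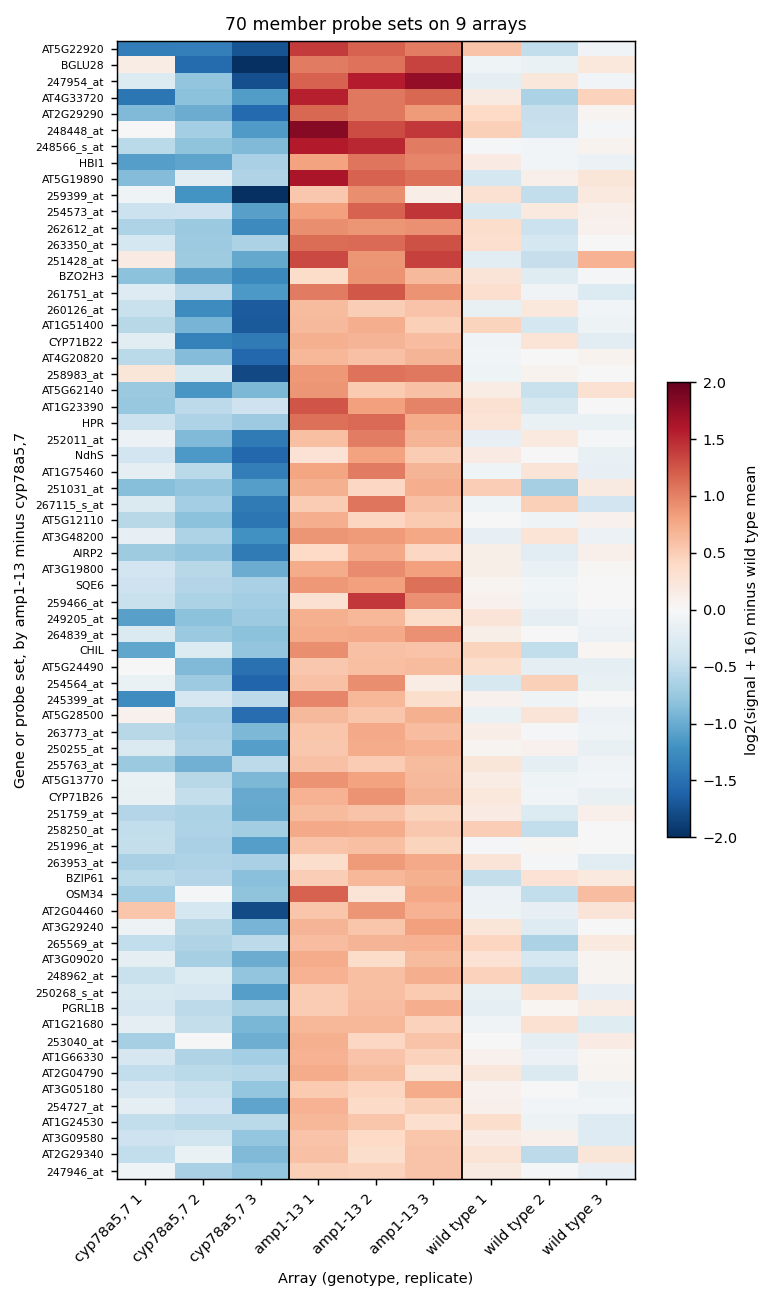
Each of the 70 members is a row, ordered by the difference of the mutants, and each of the 9 arrays a column. The colour is log2(signal + 16) minus the wild type mean, blue below it and red above it, with the scale ending at -2 and 2. Replicate 3 of cyp78a5,7 is the darkest blue column, and a few members are near the wild type mean on replicate 1 of cyp78a5,7.

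The grouping of named members by kind below is for reading only. The share of each kind among all probe sets was not counted. Genes of transcription and protein turnover are given first. AT5G22920 encodes the RING zinc-finger protein RZPF34, an E3 ubiquitin ligase of drought and abscisic acid responses, and had the largest difference between the mutants. Its signal was 133, 136 and 102 in cyp78a5,7 replicates 1 to 3, 1012, 871 and 778 in amp1-13, and 567, 261 and 355 in wild type. The genotypes formed separate groups without overlap, although the wild type arrays differed more among themselves than those of either mutant. The log2 difference from wild type was -1.49 in cyp78a5,7 and 1.198 in amp1-13, and the mutants were 2.69 apart.

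BZO2H3 (bZIP63), a bZIP transcription factor of the response to low energy, had signals of 74.4, 59.9 and 49.5 in cyp78a5,7, 192, 283 and 234 in amp1-13, and 177, 119 and 142 in wild type. All arrays of cyp78a5,7 lay below wild type and all of amp1-13 above, with the nearest pair on the upper side close together. Its log2 difference was -1.06 in cyp78a5,7 and 0.64 in amp1-13. The transcription factor HBI1, a basic helix-loop-helix protein that promotes cell elongation, had signals of 35.5, 37.0 and 54.8 in cyp78a5,7, 177, 217 and 201 in amp1-13, and 108, 90.8 and 86.2 in wild type. The genotypes did not overlap, and the changes of -0.94 in cyp78a5,7 and 0.95 in amp1-13 were nearly the same size. BZIP61, another bZIP factor, was named after its values had been seen and had means of 42.6 ± 6.51 in cyp78a5,7, 126 ± 11.7 in amp1-13 and 78.4 ± 24.9 in wild type (SD, n = 3 each).

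Among genes of protein turnover, AT1G23390 encodes a kelch-repeat F-box protein that targets chalcone synthase, the entry enzyme of flavonoid synthesis. It had signals of 59.3, 71.7 and 78.6 in cyp78a5,7, 288, 207 and 235 in amp1-13, and 141, 85.2 and 112 in wild type. Only a small gap separated the highest cyp78a5,7 array from the lowest wild type array, and the amp1-13 arrays stood well above both. AIRP2, a RING E3 ligase of abscisic acid signalling, had 27.8, 25.7 and 11.0 in cyp78a5,7, 78.2, 105 and 79.3 in amp1-13, and 61.6, 45.5 and 61.4 in wild type. Its change was larger in cyp78a5,7 (-0.97) than in amp1-13 (0.52). AT1G75460, with a LON protease domain, differed by -0.71 in cyp78a5,7 and 0.83 in amp1-13.

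**Figure D3:**
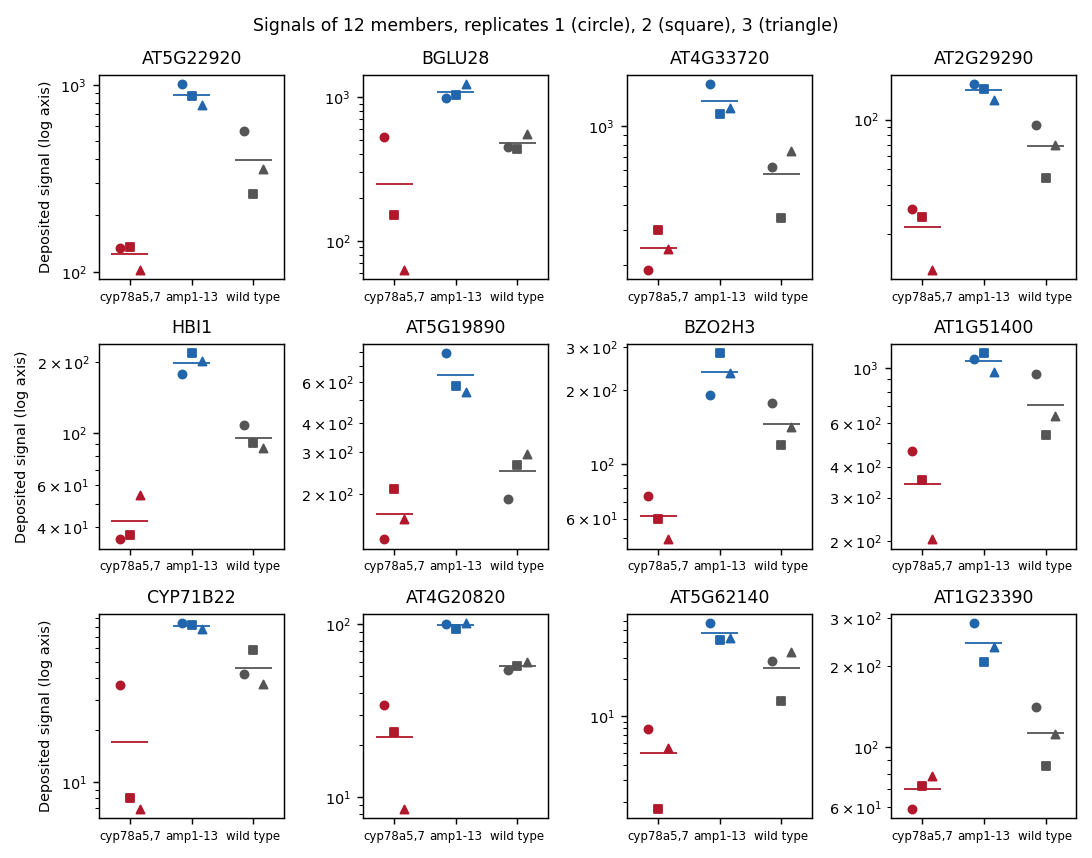
Deposited signals on a log axis for the 12 members with a single gene and the largest difference between the mutants. Points are arrays (circle, square and triangle for replicates 1, 2 and 3) and lines are means of 3. For BGLU28 the cyp78a5,7 arrays span 63.0 to 527 and overlap wild type, whereas for AT5G22920 and HBI1 the genotypes are apart.

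Several members belong to families with roles in stress and defence. BGLU28 encodes a beta-glucosidase that is induced by sulphur limitation and is linked to glucosinolate breakdown. Its signal was 527, 152 and 63.0 in cyp78a5,7, 988, 1025 and 1234 in amp1-13, and 446, 432 and 555 in wild type. The cyp78a5,7 arrays covered a wide range, and replicate 1 lay inside the wild type range while replicate 3 was the lowest array of all. The log2 differences were -1.34 in cyp78a5,7 and 1.16 in amp1-13. Its SD on the log2 scale was 1.40 in cyp78a5,7, 0.17 in amp1-13 and 0.19 in wild type, so its cyp78a5,7 mean rests on arrays that disagree.

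AT4G33720 encodes a CAP domain protein of the PR-1 family, which are secreted proteins of the defence response. It had signals of 189.7, 301 and 242 in cyp78a5,7, 1626, 1149 and 1225 in amp1-13, and 619, 344 and 752 in wild type. No array of one genotype reached another, and the log2 differences were -1.13 in cyp78a5,7 and 1.25 in amp1-13. AT5G19890, a secreted class III peroxidase, had 128, 209 and 156 in cyp78a5,7, 793, 577 and 544.5 in amp1-13, and 190.1, 265 and 294 in wild type. Here amp1-13 was clearly above the others (1.30), while replicate 2 of cyp78a5,7 fell within the wild type range (mean difference -0.56). OSM34, an osmotin of the PR-5 family, was named after its values had been seen and overlapped on both sides, with 213, 341 and 192 in cyp78a5,7, 815, 424 and 612 in amp1-13, and 322, 243 and 542 in wild type.

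Oxidoreductases are given next. AT2G29290 is annotated in a run of tropinone reductase-like short-chain dehydrogenase genes and had signals of 28.4, 25.4 and 12.1 in cyp78a5,7, 165, 155 and 132 in amp1-13, and 92.3, 44.0 and 69.7 in wild type. The genotypes did not overlap, and the log2 differences were -1.14 and 1.01 in cyp78a5,7 and amp1-13. Its neighbour AT2G29340 was the member closest to both thresholds with a name, with signals of 128, 168 and 93.0 in cyp78a5,7, 286, 243 and 285 in amp1-13, and 227, 125 and 224 in wild type. In its case wild type replicate 2 was lower than 2 of the cyp78a5,7 arrays.

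Probes that match more than a single related gene were not separated here. In the stretch from AT2G29150 to AT2G29370, 14 probe sets had a single gene, and all of them were counted, whether or not the gene is such a dehydrogenase. Of the 12 that were not members, 6 were at least 0.5 lower in cyp78a5,7, and 1 was at least 0.5 higher in amp1-13. The probe set higher in amp1-13 was that of SAG13, a senescence marker. It was also higher in cyp78a5,7 (1.05) than in wild type, with a change of 1.27 in amp1-13. Its wild type mean was dim, at 1.93 ± 2.22, far under the offset. Across all probe sets, 12.5% were at least 0.5 lower in cyp78a5,7 and 9.81% at least 0.5 higher in amp1-13. AT2G29310, for example, had means of 106 ± 23.7 in cyp78a5,7, 224 ± 31.0 in amp1-13 and 206 ± 41.3 in wild type, and AT2G29320 had 35.4 ± 12.7, 83.3 ± 12.0 and 75.8 ± 2.55 in that order (SD, n = 3 each).

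CYP71B22 and CYP71B26 are cytochrome P450 genes of a tandem gene cluster on chromosome 3, distinct from the mutated CYP78A genes. CYP71B22 had signals of 36.4, 8.02 and 6.97 in cyp78a5,7, 84.1, 81.6 and 77.9 in amp1-13, and 42.4, 58.3 and 36.9 in wild type. The amp1-13 arrays were nearly identical, and cyp78a5,7 replicate 1 lay just below the lowest wild type array while the other replicates were under the offset. CYP71B26, named after its values had been seen, had 231, 179 and 120 in cyp78a5,7, 425, 492 and 421 in amp1-13, and 299.5, 246 and 230.2 in wild type. Of 10 other named probe sets of the cluster, 2 were at least 0.5 lower in cyp78a5,7, CYP71B4 (-1.57) and CYP71B34 (-0.66), and neither was at least 0.5 higher in amp1-13 (-0.33 and -0.15). The only other one that was higher in amp1-13 by that amount, CYP71B24, had a dim wild type mean of 5.31 ± 2.25.

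AT4G20820, a berberine bridge enzyme-like oxidase, had signals of 34.1, 23.8 and 8.59 in cyp78a5,7, 99.6, 93.2 and 101 in amp1-13, and 54.0, 56.8 and 60.3 in wild type. The amp1-13 and wild type arrays were tightly grouped, and the spread lay in cyp78a5,7. SQE6, a squalene monooxygenase-like enzyme of sterol and triterpene metabolism, had 14.0, 10.5 and 9.51 in cyp78a5,7, 56.6, 54.3 and 69.6 in amp1-13, and 25.3, 22.5 and 23.8 in wild type. Its groups were separate, but the cyp78a5,7 values were under the offset, which compresses the difference of -0.55. CHIL, a chalcone isomerase-like protein that assists flavonoid synthesis, had 21.9, 48.0 and 28.8 in cyp78a5,7, 132, 100.1 and 99.1 in amp1-13, and 89.5, 39.3 and 63.9 in wild type, so that the highest cyp78a5,7 array was above the lowest wild type array.

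Some named members are known from the chloroplast or from photorespiration. They are placed together here after their values had been seen, and the share of such genes among all probe sets was not counted. HPR, the peroxisomal hydroxypyruvate reductase of photorespiration, had signals of 408, 355 and 329 in cyp78a5,7, 1203, 1225 and 939 in amp1-13, and 668, 504.5 and 501 in wild type. The genotypes were apart, with log2 differences of -0.59 in cyp78a5,7 and 0.99 in amp1-13. NdhS, a subunit of the chloroplast NADH dehydrogenase-like complex of cyclic electron flow, had 260.2, 145.5 and 105 in cyp78a5,7, 422, 611 and 496 in amp1-13, and 384, 341 and 307 in wild type. It leaned the other way, at -1.03 in cyp78a5,7 and 0.54 in amp1-13, again without overlap.

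AT1G51400, a small protein of photosystem II, had signals of 461, 354 and 204 in cyp78a5,7, 1082, 1143 and 964 in amp1-13, and 941, 535 and 639 in wild type. Wild type replicate 1 came close to the amp1-13 arrays, and cyp78a5,7 lay below every wild type array. AT5G24490, a protein of the plastid ribosome, had 548, 292 and 187 in cyp78a5,7, 814, 844 and 863 in amp1-13, and 714, 488 and 487 in wild type. AT5G28500, a Rubisco accumulation factor, had 281, 156 and 81.2 in cyp78a5,7, 422, 393 and 439 in amp1-13, and 239.6, 316 and 240.1 in wild type. In both of these genes replicate 1 of cyp78a5,7 lay within the wild type range and replicates 2 and 3 lay below it. PGRL1B, a component of cyclic electron flow around photosystem I, had means of 90.9 ± 12.3 in cyp78a5,7, 216 ± 16.9 in amp1-13 and 136 ± 16.9 in wild type (SD, n = 3 each).

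AT5G13770 encodes a pentatricopeptide repeat protein and had means of 51.2 ± 18.2 in cyp78a5,7, 147.5 ± 14.0 in amp1-13 and 79.0 ± 8.50 in wild type (SD, n = 3 each).

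For the remaining members named by the rule, no role is given. AT5G62140 had signals of 7.85, 1.76 and 5.50 in cyp78a5,7, 57.5, 41.6 and 43.7 in amp1-13, and 28.3, 13.2 and 33.1 in wild type, all cyp78a5,7 values being under the offset. AT5G12110 differed by -0.94 in cyp78a5,7 and 0.57 in amp1-13, AT3G48200 by -0.67 and 0.83, and AT3G19800 by -0.65 and 0.84. In all of these genes cyp78a5,7 was below and amp1-13 above every wild type array. Among the members without a name, 247954_at had the largest difference between the mutants (2.44), with signals of 418, 285 and 139 in cyp78a5,7, 1166, 1536 and 1752 in amp1-13, and 448, 597 and 488 in wild type. The largest change in amp1-13 was that of 248448_at (1.51), with 218, 131 and 91.5 in cyp78a5,7, 819, 569 and 614 in amp1-13, and 314, 157 and 214 in wild type. AT2G04460 had uneven cyp78a5,7 arrays, with 264, 133 and 38.8 in cyp78a5,7, 264, 334 and 292 in amp1-13, and 162, 154 and 212 in wild type. Its replicate 1 of cyp78a5,7 was above all wild type arrays and just below the lowest amp1-13 array.

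The last 8 named members, AT3G29240, AT3G09020, AT1G21680, AT1G66330, AT2G04790, AT3G05180, AT1G24530 and AT3G09580, lay between -0.61 and -0.52 in cyp78a5,7 and between 0.51 and 0.68 in amp1-13. AT3G05180 encodes a GDSL lipase-like protein and AT1G24530 a WD40 repeat protein. The 32 members without a single gene ranged from -1.26 to -0.50 in cyp78a5,7 and from 0.50 to 1.51 in amp1-13. In cyp78a5,7 the lowest of these was 259399_at, with 252, 108 and 34.1 in cyp78a5,7, 396, 527 and 296 in amp1-13, and 336, 186 and 309 in wild type. It overlapped wild type on both sides.

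Other genes of the pathways named above were taken from gene lists, which hold only part of each pathway. Many of them were named through the gene table of the study, which lists genes selected on these arrays, so their direction is not independent evidence. Of 36 sugar-repressed and low-energy genes, 23 had a named probe set and 2 were members, AT5G22920 and BZO2H3. The median of the list was 0.08 in cyp78a5,7 and 0.70 in amp1-13. Of its 24 probe sets, 7 were called higher and 6 lower in cyp78a5,7, and 8 were called higher and 2 lower in amp1-13 (limma, adjusted p under 0.05 and at least 2-fold). Across all probe sets 4.37% were called higher and 2.64% lower in cyp78a5,7, and 1.8% higher and 0.796% lower in amp1-13. SEN5 had means of 243 ± 55.0 in cyp78a5,7, 1143 ± 223 in amp1-13 and 166.5 ± 50.9 in wild type (SD, n = 3 each), so that it was higher than wild type in amp1-13 and not called in cyp78a5,7. DRM1, a dormancy-associated gene, was called lower in both mutants, at -2.55 in cyp78a5,7 and -1.48 in amp1-13.

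In the list of 30 photosynthesis genes, 10 were named and none was a member, while NdhS, PGRL1B, AT1G51400 and AT5G28500, described above, and CP12-2, which met the rule and was left out beforehand, are not on the list. Their median was 0.12 in cyp78a5,7 and 1.14 in amp1-13, with 6 called higher in amp1-13 and 1 called higher in cyp78a5,7. PRK, the phosphoribulokinase of the Calvin cycle, had means of 693 ± 118 in cyp78a5,7, 1741 ± 89.2 in amp1-13 and 627 ± 101 in wild type, and LHCB4.2, a light-harvesting protein, came nearest to the rule, at -0.76 in cyp78a5,7 and 0.24 in amp1-13. Among 12 named genes of nitrate and sulphur responses, BGLU28 was the only member. The sulphur-limitation genes SDI1, LSU1, LSU2 and APR2 were lower than wild type in cyp78a5,7 (-3.52, -3.40, -3.32 and -1.26) and stood at -1.11, -1.21, -1.31 and -0.44 in amp1-13. All 4 were called lower in cyp78a5,7 and LSU2 alone in amp1-13. SULTR1;2, a sulphate transporter gene on the same list, went the other way. It stood at 2.25 in cyp78a5,7, where it was called higher, and at 1.27 in amp1-13, where it was not called. In the list of PR and CAP-family genes 19 were named, with a median of -0.18 in cyp78a5,7 and 0.01 in amp1-13, and AT4G33720 was the only member on the list, which does not hold OSM34. PR1, PR2 and PR5, by contrast, were called higher in both mutants. Of 6 named flavonoid and anthocyanin genes on the list, which holds neither CHIL nor AT1G23390, none was a member, and DFR, a dihydroflavonol reductase, was called higher in amp1-13 (2.19) with a change of 0.52 in cyp78a5,7. None of the lists for jasmonate, auxin, cytokinin, clock, cell wall, ERF, cold, shade or cell type markers held a member. Named probe sets numbered 13 for jasmonate, 9 for auxin, 4 for cytokinin and 3 for clock genes. For cell wall, ERF, cold and shade genes they numbered 25, 7, 8 and 1. Since only 0.321% of all probe sets met all conditions, nothing is read from a list without a member. XTH6, a xyloglucan enzyme, and ERF104, an ERF factor, met the rule but were left out beforehand and are not on these lists.

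The median spread of the members in cyp78a5,7 was larger than that of probe sets in general. The rule used these values and favoured brighter probe sets, so this is a description. The median SD of log2(signal + 16) over 3 arrays was 0.38 in cyp78a5,7, 0.15 in amp1-13 and 0.24 in wild type for the members, and 0.16, 0.13 and 0.18 for all probe sets in the same order. In 43 members the SD was largest in cyp78a5,7, but the share of all probe sets was not counted, so nothing is read from this count. The median of the members relative to the wild type mean was -0.43, -0.63 and -1.002 on cyp78a5,7 replicates 1, 2 and 3, and 0.70, 0.75 and 0.68 on the amp1-13 arrays. On the wild type arrays it was 0.12, -0.09 and 0.00. Replicate 3 was the lowest cyp78a5,7 array in 58 members (82.9%), against 61.6% of the 1520 probe sets that were at least 0.5 lower in cyp78a5,7 alone, 61.3% of the 967 that were at least 0.5 higher in amp1-13 alone and 41.2% of all probe sets. Replicate 1 was the highest cyp78a5,7 array in 53 members (75.7%). The share was 63.1% of those lower in cyp78a5,7 alone, 67.5% of those higher in amp1-13 alone and 42.6% of all probe sets.

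**Figure D4:**
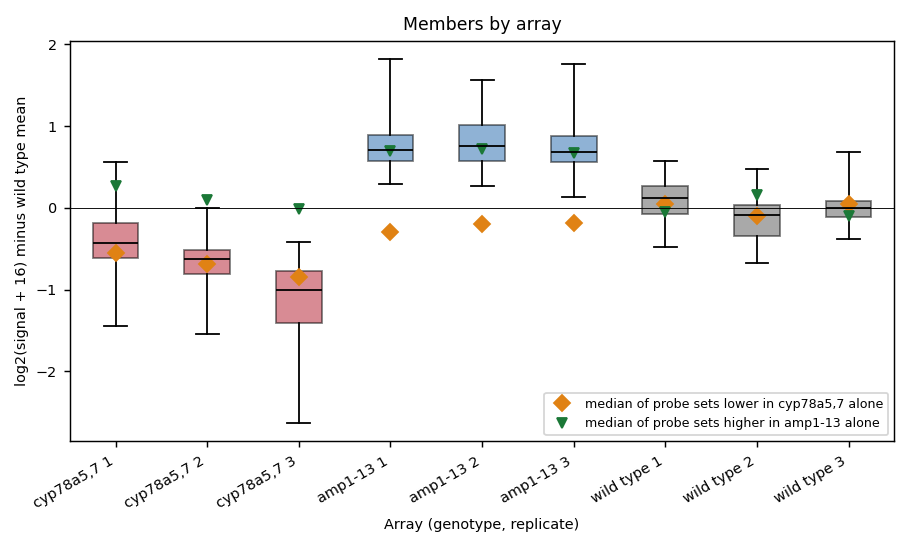
Boxes give the 70 members on each array as log2(signal + 16) minus the wild type mean (median, quartiles, whiskers to the lowest and highest member). Diamonds and triangles are medians of the 1520 probe sets lower in cyp78a5,7 alone and of the 967 higher in amp1-13 alone. The 3 amp1-13 boxes sit at medians of 0.68 to 0.75, whereas the cyp78a5,7 boxes differ, at -0.43, -0.63 and -1.002.

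The share of members below wild type therefore depended on the array. Below the lowest wild type array stood 49 members on cyp78a5,7 replicate 1, 63 on replicate 2 and 69 on replicate 3, against 32.6%, 35.1% and 38.7% of all probe sets on these arrays. At least 0.5 below the wild type mean stood 25, 54 and 69 members, against 11.9%, 13.2% and 16.0% of all. Above the highest wild type array stood 70, 68 and 67 members on the amp1-13 arrays, against 29.4%, 33.4% and 26.4% of all. All cyp78a5,7 arrays lay below all wild type arrays in 45 members (19.8% of all probe sets), all amp1-13 arrays lay above all wild type arrays in 65 (15.5% of all), and both held for 43 (0.923% of all). Since the rule used these values, nothing is read from these counts. The same holds for the calls of limma on quantile normalized values, at an adjusted p under 0.05 and at least 2-fold. By these, 9 members were called lower in cyp78a5,7 (2.64% of all probe sets), 11 were called higher in amp1-13 (1.8%), and 66 were lower in cyp78a5,7 than in amp1-13 (1.76%). Without the fold threshold the counts were 36 (13.5% of all), 22 (5.35%) and 68 (6.23%). Only AT5G22920 and AT4G33720 were called against wild type in both mutants (0.0176% of all). Leaving out an array of cyp78a5,7 changed the count in cyp78a5,7 to 19 (replicate 1) or 5 (replicate 3), and leaving out a wild type array to 3 (replicate 1), 16 (replicate 2) or 2 (replicate 3). The count in amp1-13 became 6 when replicate 1 of amp1-13 was omitted, 5 when its replicate 2 was omitted, and 4 when the omitted array was wild type replicate 3.

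Each array was left out in turn, and probe sets were chosen by the same rule on the other 8 arrays. They were then read on the array left out. A mutant array was read against the wild type mean, which had also entered the choice. Without cyp78a5,7 replicate 1 the rule chose 110 probe sets, of which 73.6% lay below the wild type mean on that array and 18.2% by at least 0.5, against 51.4% and 11.9% of all probe sets. Their median was -0.19 on the array left out and -0.70 on the cyp78a5,7 arrays used. For replicate 2, 82 were chosen, and 62.2% lay at least 0.5 below wild type (13.2% of all), and for replicate 3, 43 were chosen and 86.0% did (16.0% of all). Against this shared wild type mean, the signal was lower on cyp78a5,7 replicates 2 and 3 when they were not used for the choice. On replicate 1 few of the probe sets were lower by at least 0.5. Members made up 65 of the 110, 67 of the 82 and 38 of the 43 probe sets chosen.

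For amp1-13 the left-out arrays were alike. Of 78, 70 and 74 probe sets chosen without replicates 1, 2 and 3, the array left out was at least 0.5 above the wild type mean in 71.8%, 78.6% and 71.6%, against 11.9%, 11.6% and 9.25% of all probe sets. Medians on the array left out were 0.65, 0.68 and 0.66, beside 0.65, 0.66 and 0.69 on the amp1-13 arrays used. In these comparisons the wild type mean entered both the choice and the reading. When a wild type array was left out instead, 62, 66 and 67 probe sets were chosen, and the array lay between the means of the mutants in 91.9%, 93.9% and all of them. The distance between those means was set by the choice, so no share of all probe sets is put beside these.

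**Figure D5:**
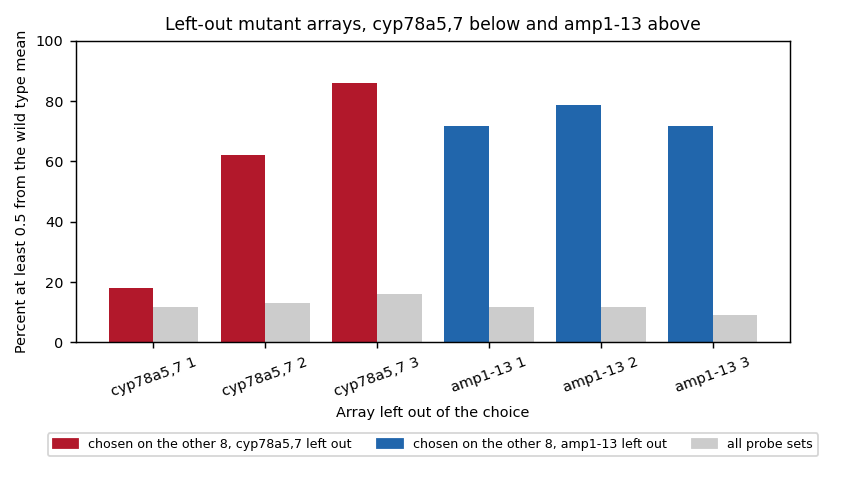
For each mutant array, the percent of probe sets chosen on the other 8 arrays that lay at least 0.5 from the wild type mean on the array left out (below it for cyp78a5,7, in red, above it for amp1-13, in blue), with the same percent for all probe sets in grey. The bar of cyp78a5,7 replicate 1 (18.2%) is close to its grey bar (11.9%), and the other bars stand at 62.2% to 86.0%.

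The correlation between pairs of members within the genotypes was higher with the cyp78a5,7 arrays than without them. The rule had used all of these arrays, so the values are a description. After removing the genotype means, the mean correlation between pairs of members over the 9 arrays was 0.332, against 0.024 for pairs of all probe sets and 0.176 for pairs of those lower in cyp78a5,7 alone. Without cyp78a5,7 replicate 3 it was 0.164, against 0.026 and 0.121 in those sets, and over the 6 amp1-13 and wild type arrays it was 0.073, against 0.03 and 0.099. All pairs share the same arrays, and once arrays of cyp78a5,7 were left out the value was lower for the members and for the probe sets lower in cyp78a5,7 alone, but not for all probe sets.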

How the data were processed

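Transcript levels were measured on 9 Affymetrix ATH1 arrays, 3 for each genotype. The deposited table holds signal intensities on a linear scale, made by the authors with MAS5 (version not given), and the trimmed mean of every array (2% cut at either end) equalled 100.0. The study's own RMA values were not used here. Of 22810 probe sets, 64 controls were left out. An offset of 16 was added before the log2, which shrinks the differences of dim probe sets. Members were chosen without further normalization, and all log2 differences in the text are on this scale.

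For the calls, log2 values were quantile normalized and fitted with limma 3.58.1 (R 4.3.3) to the 9 arrays with no term besides genotype, with Benjamini-Hochberg adjustment over 22746 probe sets. The scripts were tested on simulated data. Names came from the platform annotation (13513 probe sets with a single gene, 503 with several), updated through RefSeq TAIR10.1, and then from the gene table of the study (820 more), whose comparisons of the genotypes were not used. Named genes were the 24 single-gene members with the largest difference between the mutants, members on a gene list, and probe sets nearest to the thresholds. The members, the gene lists and these rules were chosen with earlier results of these data known. Promoter sequences were not analysed here. The labels give replicate numbers that all genotypes share. In residuals from the genotype means, the correlation between arrays was -0.119 to 0.161 for equal numbers and -0.174 to 0.247 for unequal ones, so the numbers were used as a block only as an alternative. Further alternatives were other scalings, offsets, thresholds, filters and fits, and leaving out each array. The number of arrays limits the precision. Figures were drawn with matplotlib 3.10.9.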

Additional observations from a re-analysis of the deposited data

How the results depend on the processing

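The number of members was set by the thresholds and the offset. In place of 70 there were 289 with no offset (all 70 among them), 19 with an offset of 64, 146 at a threshold of 0.4, 8 at 0.75, 4 at 1, and 33 when a single annotated gene was required. Quantile normalization gave 67 (57 of them shared) and centring on the 75th percentile 71 (59 shared). Leaving out an array gave 43 (without cyp78a5,7 replicate 3) to 110 (without cyp78a5,7 replicate 1). The median difference of the members was -0.899 with no offset and -0.441 with an offset of 64 in cyp78a5,7, and -0.805 to -0.519 without an array. In amp1-13 it was 0.612 with centring on the 75th percentile, 0.811 with no offset and 0.532 with an offset of 64, and 0.657 to 0.746 without an array.

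Of the members called lower in cyp78a5,7 (9), there were 36 with no fold threshold, 18 with no offset, 1 with an offset of 64, 5 with only the 2 genotypes in the fit, and 2 to 19 without an array. Of those called higher in amp1-13 (11), there were 22 with no fold threshold, 6 with no offset and 4 to 12 without an array. Of those called lower in cyp78a5,7 than in amp1-13 (66), there were 32 with an offset of 64 and 51 to 68 without an array. With the replicate number as a block the counts were 9, 11 and 63, and for 5 of the 9 arrays the closest other array bore an equal number. The block changed none of these counts by more than 1.5 times. Of 480 values of the 24 named genes under the alternatives that could change them, 418 moved by less than the SD between arrays, 62 moved by more and 0 changed sign. These genes were chosen for large differences on the same arrays, so a kept sign says little. A large SD also hides large moves. BGLU28 went from -1.345 to -0.70 in cyp78a5,7 without replicate 3, within its SD of 1.401. Except where the construction of an alternative shows it (other offsets or thresholds), the cause of a change was not tested. Signals under the offset, 34.5% to 38.3% of an array, limit the size of differences in dim probe sets. With 3 arrays in a group, a single deviating array cannot be tested.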
